A study of Homo sapiens with 8 samples.

Results

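RNA of targets and regulators of the transcription factor p53 was followed in leukemia cells that had become resistant to the degradation of *CTCF*. The protein p53 and its activity in these cells were not measured here. The members were 31 genes taken by symbol from a curated list of p53 targets and regulators of p53 among the 60754 rows of the deposited table. RNA of 24 members reached 1 TPM (RNA per transcript length, relative to all RNA of the library) in at least 1 library and was tested, whereas 7 members stayed under 1 TPM in all 8 libraries.

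RNA-seq covered clones C17.2 and C3.2 of CTCFAID2 SEM cells, with 2 libraries for each of the 4 groups, parental and resistant cells of each clone. SEM is a human B-cell acute lymphoblastic leukemia (B-ALL) line with a *KMT2A* rearrangement. In all groups both alleles of *CTCF* carry a miniAID-mClover3 tag, and a lentiviral cassette with the MND promoter drives OsTIR1(F74G), the plant F-box protein that couples the tag to ubiquitination in the presence of 5-Ph-IAA, together with a Zeocin resistance gene. Parental cells received neither drug. Resistant cells were kept for 36 days in 1 μM 5-Ph-IAA with 100 μg/ml Zeocin, an agent of the bleomycin family that breaks DNA, and then 48 h without drugs. The study described a nonsense change of *CTCF* in C17.2 resistant cells and a missense change of the tag in C3.2 resistant cells, neither of which was examined here. Each group comes from 1 clone, and the labels do not say whether the 2 libraries of a group came from separate cultures, so p-values measure only the spread between these libraries. The library titles of each clone open with a separate run of numbers, whose meaning the labels do not give, so clone cannot be told apart from what these numbers mark in any comparison of levels between clones.

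Of 7 B-lineage markers, 6 were detected in all libraries, among them *PAX5*, *EBF1*, *CD22*, *VPREB1* and *CD79A* at 77.8 to 193 TPM, and the other, *DNTT*, which encodes the terminal transferase of immature lymphocytes, was at 0 to 0.25 TPM. Markers of other blood cells summed to at most 0.25 TPM for T cells, 2.47 TPM for myeloid cells and 0.21 TPM for erythroid cells. TPM carries no sequencing depth, so depth is unknown and the precision of single levels can be read only from the 2 libraries of a group. Standard errors of the changes pool the spread of all 4 groups and are moderated across genes. A gene therefore has the same standard error in both clones, even where its libraries differ more in 1 clone. Levels below are TPM as deposited. Changes are log2 fold changes on log2(TPM + 1) after the libraries had been scaled by factors of 0.893 to 1.16, tested with limma in 1 model of the 4 groups over 15614 genes, and called past the threshold at an adjusted p under 0.05 (Benjamini-Hochberg, two-sided). Adding 1 understates changes at low TPM. Without the scaling, the median of all genes tested shifted to 0.13 in C17.2 and 0.053 in C3.2, and with it the median was 0 in both.

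In unstressed cells p53 protein is kept low by *MDM2*, a ubiquitin ligase that marks it for the proteasome, and by *MDM4*, a partner of *MDM2* that blocks its transactivation domain. DNA breaks activate the kinases *ATM* and *CHEK2*, which release p53 from this control largely at the level of the protein. The stabilized factor binds paired decamers in DNA and raises the transcription of genes for cell cycle arrest, apoptosis, DNA repair and metabolism, as well as of *MDM2*, *PPM1D* and *CCNG1*, which feed back on p53. Several of its targets also respond to other transcription factors, among them *ATF4* and *DDIT3* of the response to amino acid shortage and unfolded protein.

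The promoter sequences of 3 members that rose are shown because the known p53 elements can be read in them. Windows of 250 bases before each RefSeq transcription start (GRCh38.p14) were found for 25 of the 31 members. The p53 consensus decamer, which reads the same on both strands, and 2 such decamers joined to 20 bases were searched, overlapping matches included. The limit of 3 mismatches in the 20 bases was set after the windows had been seen. Capitals mark the 20 bases with at most 3 mismatches, and sequences run 5′ to 3′ on the strand of the gene.
*MDM2*, downstream start, chr12:68808767-68809016, + strand: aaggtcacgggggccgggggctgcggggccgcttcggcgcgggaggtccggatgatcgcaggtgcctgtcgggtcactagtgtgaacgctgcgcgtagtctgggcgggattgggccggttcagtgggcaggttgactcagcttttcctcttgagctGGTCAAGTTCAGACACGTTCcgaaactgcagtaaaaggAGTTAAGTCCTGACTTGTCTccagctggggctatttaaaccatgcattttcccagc
*SESN1*, chr6:109008989-109009238, - strand: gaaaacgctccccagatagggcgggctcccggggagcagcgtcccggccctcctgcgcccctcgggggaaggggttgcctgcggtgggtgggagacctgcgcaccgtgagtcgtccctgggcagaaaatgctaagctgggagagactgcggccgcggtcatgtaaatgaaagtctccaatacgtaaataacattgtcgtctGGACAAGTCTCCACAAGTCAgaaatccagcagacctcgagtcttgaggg
*AEN*, chr15:88621090-88621339, + strand: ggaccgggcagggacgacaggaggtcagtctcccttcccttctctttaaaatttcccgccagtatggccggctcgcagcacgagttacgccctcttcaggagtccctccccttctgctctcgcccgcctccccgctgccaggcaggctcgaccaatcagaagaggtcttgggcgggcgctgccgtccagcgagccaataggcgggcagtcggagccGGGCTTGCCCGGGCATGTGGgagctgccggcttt

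The *MDM2* window, which lies inside the gene, holds matches with 2 and with 3 mismatches, whose first bases are 94 and 56 bases before the start. In *SESN1*, also inside the gene, the match has 3 mismatches, begins 49 bases before the start and opens with a perfect decamer. The match of *AEN*, with 2 mismatches, begins 34 bases before the start and opens likewise. In Gencode release 44 no annotated exon falls in the *SESN1* window, and exons cover 15 bases of the *MDM2* window and 3 bases of the *AEN* window. A 20-base match with at most 3 mismatches was present in 6 of 38 member windows (15.8%), against 4.36% of the 35116 windows of all genes. At most 2 mismatches were present in 4 of 38 member windows (10.5%), against 0.561% of all windows, and a perfect decamer in 5 of 38 (13.2%), against 5.57%. Overlapping windows of *MDM2* hold the same matches and were counted as 2. By gene, at most 3 mismatches were present in 5 of 25 members, against 1469 of 27305 genes. At most 2 were present in 3 of 25 members, against 194 of 27305 genes. Because the members were picked as p53 targets and regulators, larger shares than in all genes may follow from that choice. They are given as description and test nothing. The other 2 members with a 20-base match were *FAS*, which was not tested, and *FDXR*, which did not pass the threshold in either clone. *CDKN1A*, whose known response elements lie further upstream than these windows, had no match, and neither did *TIGAR*. A match is a stretch of letters and does not show that p53 was bound there.

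The 24 tested members changed in both directions. In C17.2 resistant cells, 12 members passed the threshold, or 50.0% of those tested, against a background of 27.3% of all genes tested and 33.1% of protein-coding genes. Of these, 8 rose (*MDM2*, *E2F7*, *AEN*, *TRIAP1*, *POLH*, *SESN1*, *TIGAR* and *ZMAT3*; background 13.4% higher) and 4 fell (*MDM4*, *CCNG1*, *CDKN1A* and *GADD45A*; background 13.9% lower). In C3.2 resistant cells, 9 members passed the threshold, or 37.5%, against a background of 11.3% of all genes tested and 13.4% of protein-coding genes. Here 5 rose (*E2F7*, *TNFRSF10B*, *POLH*, *SESN1* and *TIGAR*; background 4.43% higher) and 4 fell (*PPM1D*, *CCNG1*, *CDKN1A* and *GADD45A*; background 6.91% lower). On TPM as deposited the split was 9 higher and 3 lower in C17.2 and 5 higher and 2 lower in C3.2, and rescaling over protein-coding genes gave 7 higher and 2 lower in C3.2. The median log2 fold change of the tested members was 0.014 in C17.2 and 0.097 in C3.2, beside 0 for all genes tested. The shares called were thus above the background while the medians stayed close to 0. The members were chosen with earlier results of these data known, so these shares do not test p53 targets as a set.

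Both clones moved 7 members past the threshold in the same direction, against a background of 6.30% of genes tested. *E2F7*, *POLH*, *SESN1* and *TIGAR* rose in both, and *CCNG1*, *CDKN1A* and *GADD45A* fell in both. No member passed the threshold in opposite directions. Opposite calls were rare among all genes tested too, since 1111 genes passed in both clones and 983 of these in the same direction. Their absence among the members therefore says little about the members. At least 1 clone was past the threshold for 14 members and neither clone for 10, counts for which the share of all genes was not worked out. The changes of the clones were set against each other by an interaction test (C17.2 change minus C3.2 change), which 3 members passed, *MDM2*, *MDM4* and *TNFRSF10B*. Their share, 12.5% of the members tested, was near the background of 9.96%. On TPM as deposited, 2 members were higher and 1 lower in this test, and with the scaling 1 was higher and 2 were lower. Without the first C17.2 parental library, *MDM4*, *CCNG1*, *GADD45A*, *TRIAP1* and *ZMAT3* lost their calls in C17.2 and 7 members passed. Without either C3.2 parental library, 2 members passed in C3.2, *E2F7* and *TNFRSF10B*. All 9 calls of C3.2 were lost when its 4 libraries were fitted alone, a model that called 74 genes in all. With 2 libraries against 2, an exact permutation test cannot give a p below 0.333.

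**Figure D1:**
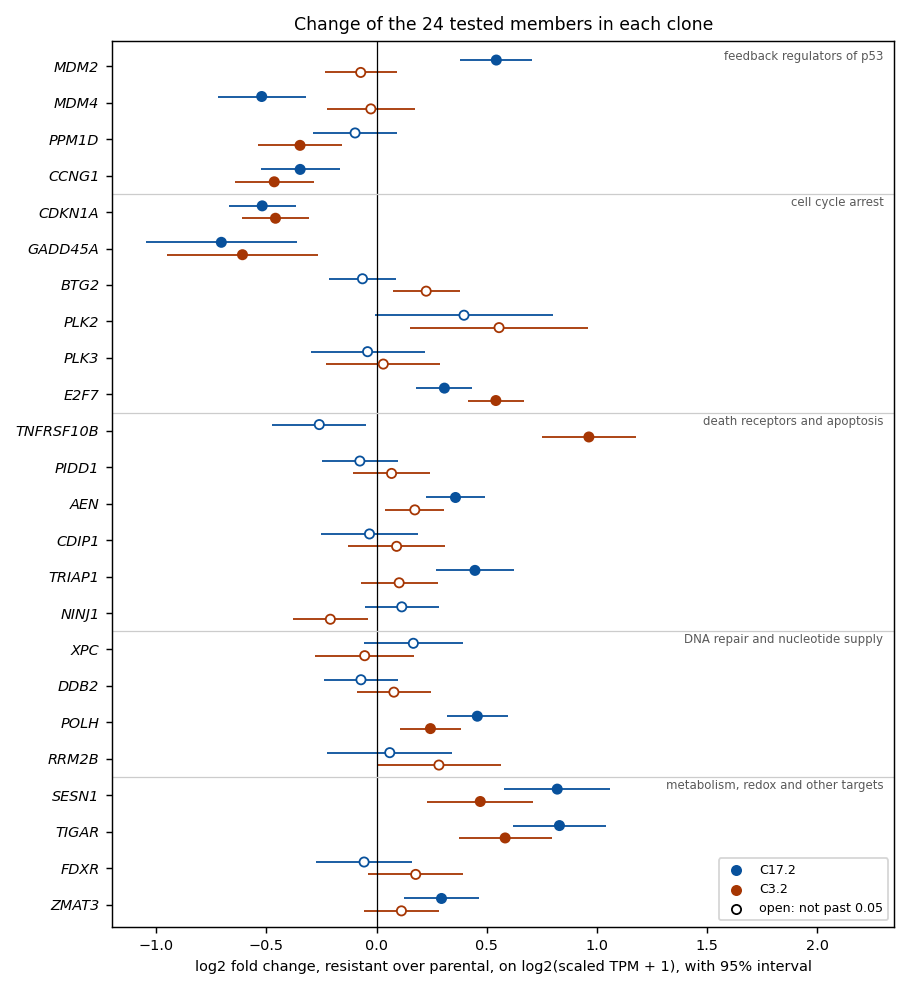
Log2 fold change of resistant over parental cells for the 24 tested members, on log2(scaled TPM + 1), with 95% confidence intervals from limma, grouped by role. Filled points passed the threshold of 0.05 on the adjusted p, 12 in C17.2 (blue) and 9 in C3.2 (red), and the values run from -0.70 (*GADD45A*) to 0.83 (*TIGAR*) in C17.2 and from -0.61 (*GADD45A*) to 0.96 (*TNFRSF10B*) in C3.2.

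Among the 4 feedback regulators of p53, *MDM2* rose and *MDM4* fell in C17.2, and neither passed the threshold in C3.2. *MDM2* (ENSG00000135679.25, chromosome 12, 68808177 to 68845544) was at 46.93 and 44.52 TPM in C17.2 parental cells, 70.94 and 79.44 TPM in C17.2 resistant cells, 52.94 and 55.03 TPM in C3.2 parental cells and 58.55 and 49.35 TPM in C3.2 resistant cells. Both resistant libraries of C17.2 lay above all other libraries, and the groups of C3.2 overlapped. The log2 fold change was 0.54 in C17.2 (standard error 0.068, adjusted p = 0.00228 from limma) and -0.072 in C3.2 (95% interval -0.24 to 0.092, adjusted p = 0.541 from limma), where its sign turned on TPM rescaled over protein-coding genes. The interaction was 0.62 (limma, adjusted p = 0.0145), and it fell short when either parental library of either clone or the second C17.2 resistant library was left out. The exons of *MDM2* contain, on the same strand, the processed pseudogene ENSG00000256664, which was listed at 25.79 to 43.62 TPM with a log2 fold change of 0.25 in C17.2 (adjusted p = 0.0988 from limma) and -0.086 in C3.2, so the split of reads between them is uncertain.

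*MDM4* (ENSG00000198625.13) was at 67.80 and 62.44 TPM in C17.2 parental cells, 45.44 and 55.87 TPM in C17.2 resistant cells, 39.30 and 39.93 TPM in C3.2 parental cells and 40.54 and 40.96 TPM in C3.2 resistant cells. Its level fell in C17.2 by 0.52 on the log2 scale (standard error 0.083, adjusted p = 0.00558 from limma), and all 4 libraries of C3.2 lay below those of C17.2. The change in C3.2 was -0.026 (95% interval -0.23 to 0.17, adjusted p = 0.882 from limma), with the opposite sign on TPM as deposited, on TPM rescaled over protein-coding genes and after quantile normalization. The interaction of -0.50 was at the edge of the threshold (adjusted p = 0.0489 from limma) and fell short under 10 of 16 alternatives. Per library, the ratio of *MDM2* to *MDM4* RNA was 0.692 and 0.713 in C17.2 parental cells and 1.56 and 1.42 in C17.2 resistant cells. In C3.2 it was 1.35 and 1.38 in parental cells and 1.44 and 1.21 in resistant cells. The C17.2 parental libraries were therefore the pair with less *MDM2* than *MDM4* RNA per length.

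*CCNG1*, which encodes cyclin G1 and recruits a phosphatase to *MDM2*, was at 61.66 and 57.54 TPM in C17.2 parental cells, 51.55 and 52.81 TPM in C17.2 resistant cells, 49.53 and 54.90 TPM in C3.2 parental cells and 37.44 and 41.33 TPM in C3.2 resistant cells. In each clone both resistant libraries lay below both parental libraries. It fell in both, with a log2 fold change of -0.35 in C17.2 (adjusted p = 0.0169 from limma) and -0.46 in C3.2 (adjusted p = 0.0148 from limma). On TPM as deposited the C17.2 value was -0.19 and not past the threshold, and it fell short without any of the 4 libraries of C17.2. *PPM1D*, which encodes the phosphatase WIP1 that turns off *ATM* and p53 signaling, was at 11.32 and 10.34 TPM in C17.2 parental cells, 11.69 and 10.81 TPM in C17.2 resistant cells, 9.99 and 11.08 TPM in C3.2 parental cells and 9.20 and 7.78 TPM in C3.2 resistant cells. It passed the threshold in C3.2 (log2 fold change -0.35, adjusted p = 0.0403 from limma), but fell short under 12 of 17 alternatives. In C17.2 its log2 fold change was -0.10 (adjusted p = 0.407 from limma), and 0.213 was the adjusted p of the difference between the clones.

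Of the 6 members that act in cell cycle arrest, 2 fell in both clones and 1 rose in both. *CDKN1A* (ENSG00000124762.13, chromosome 6, 36676460 to 36687337), which encodes the cyclin-dependent kinase inhibitor p21 and is a classical target of p53, was at 59.95 and 56.18 TPM in C17.2 parental cells, 43.45 and 46.57 TPM in C17.2 resistant cells, 47.62 and 51.39 TPM in C3.2 parental cells and 36.22 and 38.73 TPM in C3.2 resistant cells. The resistant libraries lay below the parental libraries of the same clone without overlap. The log2 fold change was -0.52 in C17.2 (95% interval -0.67 to -0.37, adjusted p = 0.00209 from limma) and -0.46 in C3.2 (95% interval -0.61 to -0.31, adjusted p = 0.00914 from limma). The interaction of -0.060 had an interval of -0.28 to 0.16 and an adjusted p of 0.713 from limma. The antisense transcript DINOL that overlaps *CDKN1A* was at 0 to 0.07 TPM.

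*GADD45A*, which encodes a stress protein that inhibits the mitotic kinase CDK1, was at 4.99 and 5.00 TPM in C17.2 parental cells, 3.29 and 2.71 TPM in C17.2 resistant cells, 3.82 and 2.83 TPM in C3.2 parental cells and 2.00 and 1.88 TPM in C3.2 resistant cells. It fell in C17.2 (log2 fold change -0.70, standard error 0.14, adjusted p = 0.0132 from limma) and in C3.2 (log2 fold change -0.61, standard error 0.14, adjusted p = 0.0437 from limma). In both clones the highest resistant library was below the lowest parental library. The C3.2 call was lost under 13 of 17 alternatives, with values from -0.80 to -0.42, and the C17.2 call was lost without either parental library or the second resistant library.

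*E2F7*, an atypical E2F factor that represses cell cycle genes downstream of p53, was at 21.79 and 21.63 TPM in C17.2 parental cells, 30.79 and 29.91 TPM in C17.2 resistant cells, 14.76 and 15.13 TPM in C3.2 parental cells and 23.30 and 23.14 TPM in C3.2 resistant cells. It rose in both clones, with log2 fold changes of 0.31 in C17.2 (adjusted p = 0.00738 from limma) and 0.54 in C3.2 (adjusted p = 0.00315 from limma), and the 2 libraries of each group differed by less than 1 TPM. The other members with this role did not pass the threshold. *BTG2*, which encodes an antiproliferative partner of the deadenylase complex, was at 14.09 to 15.60 TPM in C17.2 and at 10.84 to 13.65 TPM in C3.2, with log2 fold changes of -0.064 and 0.23 (adjusted p = 0.50 and 0.0717 from limma), the first of which turned positive on TPM as deposited. Levels of *PLK2*, a kinase of the polo family, were 0.56 and 0.50 TPM in C17.2 parental cells, 1.31 and 0.98 TPM in C17.2 resistant cells, 0.75 and 0.45 TPM in C3.2 parental cells and 1.22 and 1.51 TPM in C3.2 resistant cells, so that it entered the test through its resistant libraries alone. Its log2 fold changes were 0.40 and 0.56 (adjusted p = 0.133 and 0.0879 from limma). *PLK3* ranged from 5.75 to 7.87 TPM over the 8 libraries, and parental and resistant libraries overlapped in both clones.

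**Figure D2:**
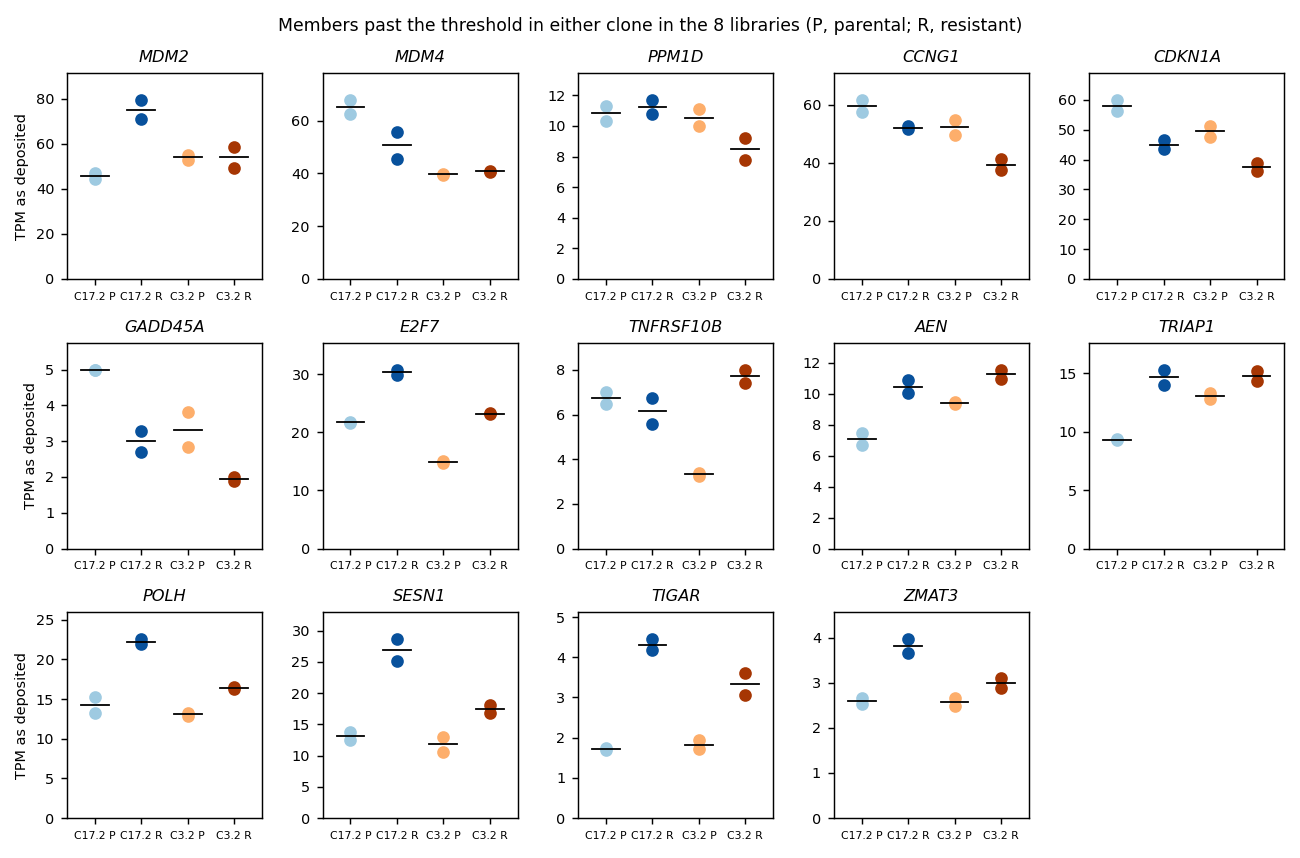
Deposited TPM of the 14 members past the threshold in at least 1 clone, in the 2 libraries of each group (P, parental; R, resistant); each point is a library and the bar is the mean of its group. *CDKN1A*, *CCNG1* and *GADD45A* lie lower in resistant cells of both clones, *SESN1*, *TIGAR*, *POLH* and *E2F7* lie higher in both, *MDM2* is higher in C17.2 at 70.94 and 79.44 TPM, and *TNFRSF10B* is higher in C3.2 at 7.41 and 8.01 TPM.

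Among the 11 members that encode death receptors or act in apoptosis, 6 were tested. *TNFRSF10B* (ENSG00000120889.13, chromosome 8, 23020133 to 23069031), which encodes the TRAIL receptor DR5, was at 7.02 and 6.49 TPM in C17.2 parental cells, 5.57 and 6.72 TPM in C17.2 resistant cells, 3.26 and 3.40 TPM in C3.2 parental cells and 7.41 and 8.01 TPM in C3.2 resistant cells. It rose in C3.2, where both resistant libraries lay above both parental libraries, by 0.96 (95% interval 0.75 to 1.18, adjusted p = 0.00258 from limma). In C17.2 the groups overlapped on TPM as deposited, with a log2 fold change of -0.26 (adjusted p = 0.0759 from limma). The interaction of -1.22 was the largest in size among the members (limma, adjusted p = 0.00362) and passed the threshold under all 16 alternatives run. *RHOBTB2*, which overlaps *TNFRSF10B* on the opposite strand, rose in both clones, from 2.93 and 3.01 to 7.18 and 6.64 TPM in C17.2 (log2 fold change 0.85, adjusted p = 0.0015 from limma) and from 2.01 and 1.77 to 4.83 and 5.09 TPM in C3.2 (log2 fold change 1.01, adjusted p = 0.00276 from limma). The sources used here do not say whether reads were counted by strand, so reads of the 2 genes may not be separated, and the part of *RHOBTB2* in the rise of *TNFRSF10B* was not tested.

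*AEN*, which encodes a nuclease induced by p53 during apoptosis, was at 7.45 and 6.68 TPM in C17.2 parental cells, 10.01 and 10.89 TPM in C17.2 resistant cells, 9.46 and 9.35 TPM in C3.2 parental cells and 11.55 and 10.93 TPM in C3.2 resistant cells. Its rise passed the threshold in C17.2 (log2 fold change 0.36, adjusted p = 0.005 from limma) and not in C3.2 (0.17, adjusted p = 0.0999 from limma), although the libraries did not overlap there either. Its interaction did not pass (adjusted p = 0.194 from limma). *TRIAP1*, which encodes a small mitochondrial protein that restrains apoptosis, was at 9.33 and 9.30 TPM in C17.2 parental cells, 13.97 and 15.30 TPM in C17.2 resistant cells, 13.27 and 12.77 TPM in C3.2 parental cells and 14.29 and 15.15 TPM in C3.2 resistant cells. C17.2 parental cells had the lowest levels, and the log2 fold change was 0.45 in C17.2 (adjusted p = 0.00611 from limma), 0.10 in C3.2 (adjusted p = 0.409 from limma) and 0.34 between the clones (adjusted p = 0.089 from limma). The processed pseudogene TRIAP1P1 was listed at 0 in all libraries. *PIDD1*, which encodes the scaffold of a caspase-activating complex, *CDIP1* and *NINJ1*, which encodes a membrane protein of cell rupture, ranged from 6.81 to 11.42 TPM and did not pass the threshold. *NINJ1* had log2 fold changes of 0.11 and -0.21 (adjusted p = 0.278 and 0.112 from limma).

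The other 5 members with this role were not tested. *FAS*, which encodes the CD95 death receptor, was at 0.40 and 0.49 TPM in C17.2 parental cells, 0.35 and 0.40 TPM in C17.2 resistant cells, 0.31 and 0.28 TPM in C3.2 parental cells and 0.23 and 0.17 TPM in C3.2 resistant cells. Its exons overlap *STAMBPL1* on the same strand, at 2.25 to 4.45 TPM, and those of *TP53INP1* overlap *NDUFAF6* on the opposite strand, at 7.57 to 11.09 TPM. Reads of these pairs may not be separated. *TNFRSF10A*, which encodes the TRAIL receptor DR4, reached at most 0.01 TPM, *TP53INP1* at most 0.02 TPM and *PHLDA3*, which encodes an inhibitor of AKT, at most 0.04 TPM. *EDA2R*, a receptor of the tumor necrosis factor family, was listed at 0 in all libraries. *TNFRSF10B* was thus the member of the death receptors with a level above 1 TPM in SEM cells.

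Of the 4 members in DNA repair and nucleotide supply, *POLH* passed the threshold. This gene encodes polymerase eta, which copies past damaged bases, and was at 15.22 and 13.26 TPM in C17.2 parental cells, 21.95 and 22.56 TPM in C17.2 resistant cells, 13.25 and 12.91 TPM in C3.2 parental cells and 16.49 and 16.33 TPM in C3.2 resistant cells. In each clone the resistant libraries lay above the parental libraries, with log2 fold changes of 0.46 (adjusted p = 0.00231 from limma) and 0.24 (adjusted p = 0.0442 from limma). The C3.2 call was lost under 12 of 17 alternatives, with values from 0.20 to 0.34. *GTPBP2*, which overlaps *POLH* on the opposite strand, had log2 fold changes of -0.29 in C17.2 (adjusted p = 0.00621 from limma) and -0.17 in C3.2, opposite in sign to *POLH*. *XPC* and *DDB2*, which recognize bulky DNA lesions, were at 8.23 to 11.94 TPM and 18.76 to 29.65 TPM. *RRM2B*, which encodes a subunit of ribonucleotide reductase, was at 5.36 to 8.31 TPM. The log2 fold changes of these 3 genes lay between -0.071 (*DDB2*, C17.2) and 0.28 (*RRM2B*, C3.2, adjusted p = 0.18 from limma).

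The largest rises of members in C17.2 were those of *TIGAR* and *SESN1*, both of which act in redox balance. *TIGAR* (ENSG00000078237.7, chromosome 12, 4307763 to 4360028), a phosphatase that turns glucose from glycolysis to the pentose phosphate pathway, was at 1.69 and 1.75 TPM in C17.2 parental cells, 4.17 and 4.45 TPM in C17.2 resistant cells, 1.71 and 1.94 TPM in C3.2 parental cells and 3.62 and 3.07 TPM in C3.2 resistant cells. *SESN1* (ENSG00000080546.13, chromosome 6, 108984309 to 109094846), which encodes a sestrin that restrains mTORC1, was at 13.82 and 12.49 TPM in C17.2 parental cells, 25.11 and 28.66 TPM in C17.2 resistant cells, 10.64 and 13.02 TPM in C3.2 parental cells and 16.80 and 18.14 TPM in C3.2 resistant cells. For both genes, both resistant libraries lay above both parental libraries in each clone. *TIGAR* rose by 0.83 in C17.2 (standard error 0.087, adjusted p = 0.00123 from limma) and 0.58 in C3.2 (standard error 0.087, adjusted p = 0.012 from limma). *SESN1* rose by 0.82 in C17.2 (standard error 0.099, adjusted p = 0.00207 from limma) and 0.47 in C3.2 (standard error 0.099, adjusted p = 0.0322 from limma). The C3.2 call of *SESN1* was lost under 10 of 17 alternatives. Neither gene differed past the threshold between the clones, with interactions of 0.25 and 0.35 (adjusted p = 0.262 and 0.175 from limma).

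*ZMAT3*, which encodes an RNA-binding zinc finger protein, was at 2.66 and 2.52 TPM in C17.2 parental cells, 3.66 and 3.97 TPM in C17.2 resistant cells, 2.48 and 2.67 TPM in C3.2 parental cells and 3.10 and 2.89 TPM in C3.2 resistant cells. It rose in C17.2 (log2 fold change 0.29, adjusted p = 0.0247 from limma), a call lost under 5 of 17 alternatives, and its value in C3.2 was 0.11 (adjusted p = 0.351 from limma). *FDXR*, which encodes the ferredoxin reductase of mitochondria, was at 2.28 to 3.37 TPM and did not pass the threshold. *TP53I3*, a quinone oxidoreductase, was under the filter at 0.05 to 0.35 TPM, with its lowest values of 0.05 and 0.05 TPM in C17.2 resistant cells against 0.24 and 0.35 TPM in C17.2 parental cells. *FAM228B*, which overlaps *TP53I3* on the opposite strand, was at 3.97 to 7.82 TPM, so reads of the pair may not be separated. *SPATA18*, which acts in mitochondrial quality control, was listed at 0 in all libraries.

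All 19 listed genes that act upstream of p53 were tested. In C17.2, 1 rose and 3 fell, or 21.1% called, below the 27.3% of all genes tested (median log2 fold change -0.081). In C3.2 none rose and 5 fell, or 26.3% called against 11.3% (median -0.074). *CHEK2*, the checkpoint kinase that phosphorylates p53 after DNA breaks, was the gene that rose in C17.2, from 19.43 and 17.65 to 31.67 and 28.80 TPM (log2 fold change 0.52, adjusted p = 0.0114 from limma), a call lost without either parental or the first resistant library of C17.2. It was at 17.35 and 21.16 TPM in C3.2 parental cells and 20.69 and 22.03 TPM in C3.2 resistant cells, where it did not pass the threshold (0.085, adjusted p = 0.633 from limma). *HSCB*, which overlaps *CHEK2* on the opposite strand, was at 4.61 to 8.12 TPM, with a log2 fold change of -0.52 in C17.2 (adjusted p = 0.0802 from limma). *HIPK2*, a kinase that directs p53 to apoptotic targets, fell in both clones, from 7.56 and 6.94 to 5.79 and 6.10 TPM in C17.2 (-0.38, adjusted p = 0.00467 from limma) and from 5.24 and 5.68 to 3.84 and 3.52 TPM in C3.2 (-0.53, adjusted p = 0.00465 from limma). On TPM as deposited the C17.2 value of *HIPK2* was -0.25 and short of the threshold. *RPL5* and *RPL11* encode ribosomal proteins that bind *MDM2* when ribosome assembly fails. *RPL5* fell in both clones, with log2 fold changes of -0.46 and -0.43 (adjusted p = 0.00221 and 0.00825 from limma), which shrank to -0.20 in both after quantile normalization, short of the threshold in C3.2. The small nucleolar RNA *SNORD21*, which overlaps *RPL5* on the same strand, was listed at 0 to 303.18 TPM. *RPL11* had log2 fold changes of -0.36 in C17.2 (adjusted p = 0.105 from limma) and -0.60 in C3.2 (adjusted p = 0.041 from limma), the second short of the threshold under 12 of 17 alternatives. The C3.2 resistant libraries of *RPL11* were at 607.34 and 418.38 TPM, and leaving out the first or the second of them gave -0.83 and -0.37. With either of them left out, or in a model of the 4 libraries of C17.2, the C17.2 value passed the threshold. *TP63* and *TP73*, which encode relatives of p53, stayed at or below 0.06 TPM and were not tested.

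A list of 55 further p53 targets, also chosen with earlier results of these data known, moved both ways, and 47 of them were tested. In C17.2, 7 rose and 14 fell, or 44.7% called against 27.3% of all genes, with a median of -0.10. In C3.2, 3 rose and 4 fell, or 14.9% called against 11.3%, with a median of -0.068. The largest falls were those of *SESN2* and *SYTL1* in C17.2 and of *SESN2* and *BBC3* in C3.2. *SESN2*, a sestrin like *SESN1*, was at 21.61 and 20.15 TPM in C17.2 parental cells, 2.67 and 2.79 TPM in C17.2 resistant cells, 5.81 and 6.31 TPM in C3.2 parental cells and 2.22 and 2.09 TPM in C3.2 resistant cells. It fell in both clones (log2 fold changes -2.66 and -1.23, adjusted p = 6.25e-06 and 0.000222 from limma), opposite in direction to *SESN1*, which rose in both. *BBC3*, which encodes the pro-apoptotic BH3 protein PUMA, was at 4.89 and 4.20 TPM in C17.2 parental cells, 1.03 and 1.35 TPM in C17.2 resistant cells, 3.15 and 2.94 TPM in C3.2 parental cells and 1.74 and 1.62 TPM in C3.2 resistant cells. It fell too (log2 fold changes -1.42 and -0.65, adjusted p = 0.00027 and 0.0123 from limma). *SYTL1*, which encodes a vesicle trafficking protein, fell in C17.2 from 11.82 and 11.36 to 3.07 and 2.08 TPM and was at 1.88 and 2.04 TPM in C3.2 parental cells and 1.57 and 1.16 TPM in C3.2 resistant cells (log2 fold changes -1.94 and -0.38, adjusted p = 0.000383 and 0.156 from limma).

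The largest rises on that list were those of *RPS27L* and *ABHD4* in C17.2 and of *ABHD4* and *FUCA1* in C3.2. *ABHD4*, a lipase, was at 25.29 and 23.31 TPM in C17.2 parental cells, 41.14 and 38.60 TPM in C17.2 resistant cells, 15.32 and 15.17 TPM in C3.2 parental cells and 34.29 and 30.50 TPM in C3.2 resistant cells, and rose in both clones (log2 fold changes 0.53 and 0.98, adjusted p = 0.00173 and 0.000672 from limma). *FUCA1*, a lysosomal fucosidase, rose from 6.47 and 5.98 to 10.01 and 10.37 TPM in C17.2 and from 6.45 and 5.90 to 8.70 and 8.05 TPM in C3.2 (log2 fold changes 0.48 and 0.33, adjusted p = 0.00314 and 0.0276 from limma), the second short of the threshold under 10 of 17 alternatives. *RPS27L*, which encodes a ribosomal protein paralog, rose in C17.2 from 8.80 and 7.25 to 12.49 and 14.57 TPM (log2 fold change 0.54, adjusted p = 0.00655 from limma). In C3.2 it was at 12.02 and 11.68 TPM in parental cells and 10.65 and 11.03 TPM in resistant cells (log2 fold change -0.18, adjusted p = 0.247 from limma). In the interaction test 1 gene of the list was higher and 9 were lower (median -0.082). These were 21.3% of the list tested, against 9.96% of all genes tested, of which 771 were higher and 784 lower. As the list was chosen with earlier results known, these counts do not test it as a set.

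*ATF4* and *DDIT3* (CHOP) are stress factors known to raise *SESN2*, *BBC3*, *GADD45A* and *TNFRSF10B* without p53, and *ATF3* is a stress factor of the same family. All 3 fell in C17.2, and *ATF4* and *ATF3* fell in C3.2. *ATF4* was at 361.28 and 337.00 TPM in C17.2 parental cells, 197.20 and 198.90 TPM in C17.2 resistant cells, 213.81 and 222.30 TPM in C3.2 parental cells and 157.80 and 152.66 TPM in C3.2 resistant cells, with log2 fold changes of -0.98 and -0.55 (adjusted p = 3.07e-05 and 0.00088 from limma). *DDIT3* was at 34.64 and 35.44 TPM in C17.2 parental cells, 7.20 and 9.66 TPM in C17.2 resistant cells, 11.70 and 11.88 TPM in C3.2 parental cells and 9.58 and 6.91 TPM in C3.2 resistant cells, with log2 fold changes of -2.09 and -0.55 (adjusted p = 0.000277 and 0.0635 from limma). *ATF3* was at 6.71 and 7.93 TPM in C17.2 parental cells, 2.14 and 1.72 TPM in C17.2 resistant cells, 3.44 and 3.59 TPM in C3.2 parental cells and 1.63 and 1.49 TPM in C3.2 resistant cells, with log2 fold changes of -1.60 and -0.88 (adjusted p = 0.000387 and 0.00923 from limma). For all 3 genes both resistant libraries lay below both parental libraries in each clone. The exons of *DDIT3* overlap those of *MARS1* and *MBD6* on the opposite strand and of a gene on the same strand, ENSG00000285133, which had 27.89 and 12.48 TPM in C17.2 parental cells and 0 in the other groups, so the values of *DDIT3* are uncertain. *TNFRSF10B* rose in C3.2 (log2 fold change 0.96, adjusted p = 0.00258 from limma) and did not pass the threshold in C17.2 (-0.26, adjusted p = 0.0759 from limma). Whether the stress factors or p53 had a part in the rise of *TNFRSF10B* or in the falls of *SESN2*, *BBC3* and *GADD45A* was not tested. The plot of changes by list shows these falls beside the members.

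**Figure D3:**
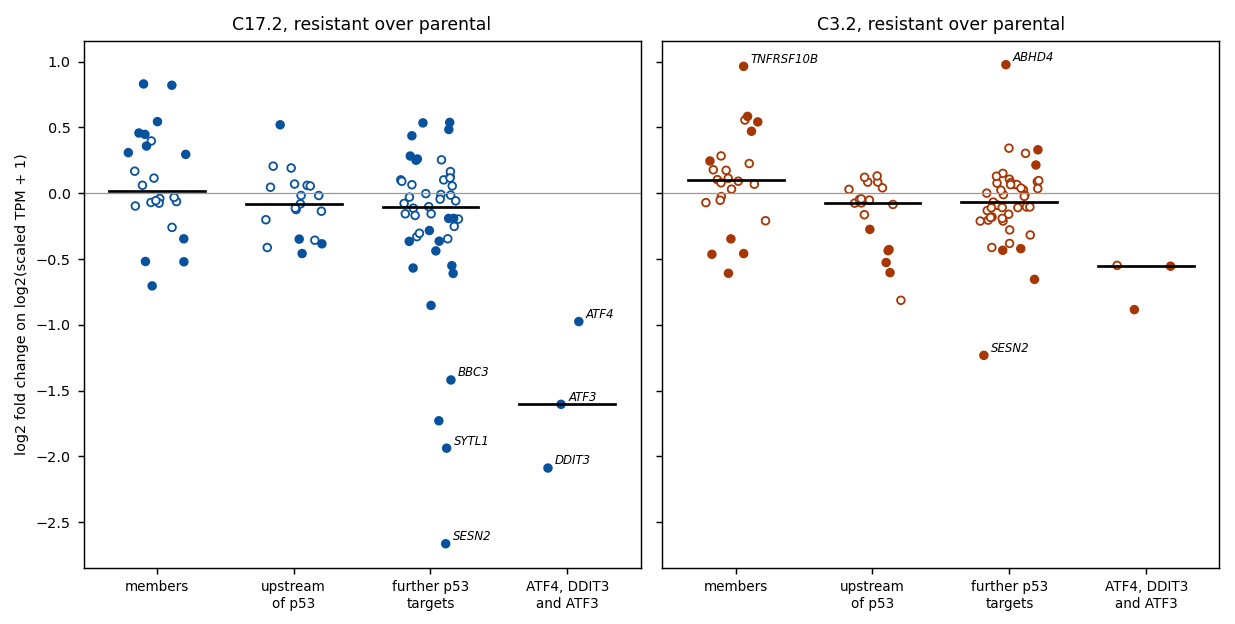
Log2 fold change of resistant over parental cells, on log2(scaled TPM + 1), for the tested genes of each list in C17.2 (left) and C3.2 (right); each point is a gene, filled where it passed the threshold of 0.05 on the adjusted p, and the black bar is the median of the list. Medians of the members (0.014 and 0.097), of genes upstream of p53 (-0.081 and -0.074) and of further p53 targets (-0.10 and -0.068) lie close to 0. The list of *ATF4*, *DDIT3* and *ATF3*, with only 3 genes, has medians of -1.60 and -0.55. All lists were chosen with earlier results of these data known, so the medians do not test the lists against each other.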

How the data were processed

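Total RNA of 8 libraries was sequenced. The labels describe single-end reads and the study's methods paired-end reads, and the number of the series is not the one named in the paper. Per the labels and the methods, the authors trimmed reads with Trim Galore 0.6.3, aligned them to hg38 with STAR 2.7.9a, quantified genes with RSEM 1.3.1 and deposited TPM per gene, with no scaling between libraries; counting by strand is not given in the sources used here. TPM fixes the sum of each library, so a change of abundant RNAs shifts all other values: small nuclear RNAs took 31.2% to 37.6% of the TPM and protein-coding genes 36.0% to 43.3%. Across genes, which are not independent replicates, the 2 libraries of each group had Pearson's r of 0.968 to 0.979.

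Rows with at least 1 TPM in at least 1 library were kept (15614 of 60754). Libraries were scaled by a mean of log2 ratios from which 30% of the ratios and 5% of the means were trimmed on each side, a pseudocount of 1 was added, and limma 3.58.1 (R 4.3.3; lmFit, contrasts.fit, eBayes with an intensity trend) was fitted with 4 group means and no covariate. The study used voom, which takes counts and could not be run on TPM. The fit was tested on simulated data. Python 3.11.15, pandas 2.3.3 and matplotlib 3.10.9 made tables and plots. Positions and exon overlaps came from Gencode release 44, matched by gene identifier, and promoter windows from RefSeq.

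The members and all lists were chosen with earlier results of these data known. Every member is accounted for. Of the other lists, up to 2 rises and 2 falls of largest size past the threshold in each clone were named. Of the genes listed upstream of p53 and of the B-lineage markers, 1 each is not reported here. The promoter search, the ratio of *MDM2* to *MDM4* and the overlapping genes were added after values had been seen. The alternatives in scaling, pseudocount, filter, moderation and libraries are given in the closing section.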

Additional observations from a re-analysis of the deposited data

Results flagged for a closer look

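Genes outside the members were named for the size of their change in these data. A count among them cannot be read against the background of this test, 9.96% of all genes tested. Of the genes named by rule, the change of 10 differed between C17.2 and C3.2 by the limma interaction test (C17.2 change minus C3.2 change, adjusted p under 0.05). Among the members these were *MDM2* (0.62, adjusted p = 0.0145), *MDM4* (-0.50, adjusted p = 0.0489) and *TNFRSF10B* (-1.22, adjusted p = 0.00362). Of the further p53 targets named, *RPS27L* differed by 0.72 (adjusted p = 0.0204), *BBC3* by -0.76 (adjusted p = 0.0232), *SESN2* by -1.43 (adjusted p = 0.000564), *SYTL1* by -1.56 (adjusted p = 0.00869) and *ABHD4* by -0.44 (adjusted p = 0.0285). *ATF4* differed by -0.42 (adjusted p = 0.0067) and *DDIT3* by -1.54 (adjusted p = 0.0089), while *ATF3* was just short of the threshold (-0.72, adjusted p = 0.0511). The other 5 further p53 targets past the threshold of this test, named after their values were seen, were *DDIT4* (-1.29, adjusted p = 0.000674), *PLXNB2* (-0.65, adjusted p = 0.00339), *PMAIP1* (-0.43, adjusted p = 0.0267), *ANKRA2* (-0.39, adjusted p = 0.0474) and *NADSYN1* (-0.35, adjusted p = 0.0373). *SESN2*, *BBC3*, *ABHD4* and *ATF4* moved in the same direction in both clones with unequal size. *TNFRSF10B* and *SESN2* passed the threshold of this test under all 16 alternatives. *MDM4* fell short under 10 of 16, *ABHD4* under 9, *BBC3* under 7, *MDM2* and *RPS27L* under 5, *SYTL1* and *DDIT3* under 4 and *ATF4* under 1, the last on TPM as deposited. Clone cannot be told apart in the levels from what the numbers in the library titles mark, and the reason for these differences was not tested.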

How the results depend on the processing

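No paired analysis was possible because the labels give the libraries no replicate numbers of their own, so numbers in accession order tie no parental library to a resistant one. The count of 12 members past the threshold in C17.2 was 11 or 12 under the other 9 processing choices and 7 to 12 with each library left out, the lowest without C17.2 parental replicate 1, which left 7. The 9 members of C3.2 were 5 with no filter on low values, 5 with no intensity trend and 0 in a model of that clone's 4 libraries, which has fewer samples, and 2 to 7 with each library left out: 2 without either C3.2 parental library, 7 without C3.2 resistant replicate 1 and 5 without any other library. Without either C3.2 parental library the C3.2 calls of *RPL5*, *BBC3* and *ATF3* were lost too, and that of *BBC3* also without C3.2 resistant replicate 2. The 3 members of the interaction were 2 or 3 under processing choices and 1 to 2 with each library left out, 1 without any parental library of either clone. All genes called in C3.2 fell from 1770 to 74 in the 4-library model.

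Of the values of single genes under alternatives, 43 changed sign, all of them of genes not past the threshold in that contrast, 156 lost and 15 gained a call, and 1636 did neither. In C17.2, TPM as deposited turned *PPM1D* (0.051), *BTG2* (0.088), *PLK3* (0.10), *PIDD1* (0.072), *CDIP1* (0.11), *DDB2* (0.086) and *FDXR* (0.065), and TPM rescaled over protein-coding genes turned *BTG2* (0.016), *PLK3* (0.033), *PIDD1* (0.0021), *CDIP1* (0.045), *DDB2* (0.012) and *FDXR* (0.0074). In C3.2 the rescaled TPM turned *MDM2* (0.031), *MDM4* (0.076) and *XPC* (0.041), TPM as deposited turned *MDM4* (0.040) and *XPC* (0.0071), and quantile normalization turned *MDM4* (0.031). In the interaction, TPM as deposited turned *CDKN1A* (0.032), *PLK3* (0.011) and *RPL5* (0.065), and quantile normalization turned *RPL5* (0.00813). With each library left out in turn, values crossed 0 in C17.2 for *BTG2* (-0.13 to 0.00024), *PLK3* (-0.19 to 0.11), *PIDD1* (-0.18 to 0.024), *CDIP1* (-0.16 to 0.092), *RRM2B* (-0.059 to 0.18) and *FDXR* (-0.12 to 0.00329), in C3.2 for *MDM2* (-0.16 to 0.013), *MDM4* (-0.069 to 0.018), *PLK3* (-0.019 to 0.080) and *CHEK2* (-0.029 to 0.20), and in the interaction for *CDKN1A* (-0.14 to 0.023), *GADD45A* (-0.28 to 0.092), *PLK3* (-0.22 to 0.082), *CDIP1* (-0.25 to 0.00082) and *RPL5* (-0.096 to 0.036). The cause of these turns was not tested. TPM keeps no depth, so what depth limits cannot be given.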

Other observations

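For several of the genes whose change differed between the clones, the parental libraries of the clones already stood apart. *MDM4* was at 67.80 and 62.44 TPM in C17.2 parental cells and 39.30 and 39.93 TPM in C3.2 parental cells, *TNFRSF10B* at 7.02 and 6.49 against 3.26 and 3.40 TPM, *SESN2* at 21.61 and 20.15 against 5.81 and 6.31 TPM, *SYTL1* at 11.82 and 11.36 against 1.88 and 2.04 TPM and *DDIT3* at 34.64 and 35.44 against 11.70 and 11.88 TPM. In resistant cells the levels lay closer for *SESN2* (2.67 and 2.79 against 2.22 and 2.09 TPM) and *DDIT3* (7.20 and 9.66 against 9.58 and 6.91 TPM). These levels were not tested between clones, since clone cannot be told apart from what the numbers in the library titles mark.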
